A study of Mus musculus with 19 samples.

Results

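Serpina3n, Lcn2 and 6 genes of the complement system (Serping1, C3, C4b, Cd55, Cd59a and Cd93) were followed in brain endothelial cells (bECs) of mice under social defeat. They are secreted proteins of the acute-phase response and components, regulators and a proposed receptor of complement. Each gene was read from the array row that carries its symbol alone. Of the 8 genes, 7 had such a row, with 1 row each, among 30638 rows with 1 symbol and 65956 rows tested, and C3 was not analysed here. The 8 genes were chosen by their differences from HC on these same arrays, among them the large Serpina3n difference after 1 day of defeat, together with their place in these pathways. Differences from HC are therefore given as a description, with their standard errors. Where limma results are printed for them, these are no test of the 8 genes.

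All 19 mice were male wild-type C57BL/6N, 8 to 10 weeks old. Home cage (HC) mice (4: animals 1, 2, 5 and 6) lived in pairs behind a partition. Stressed mice shared the cage of an aggressive CD-1 male and met it daily for 1 day (CSD1, 3: animals 4, 18 and 19), 7 days (CSD7, 4: animals 9, 16, 17 and 25) or 14 days (CSD14, 4: animals 12 to 15). In the recovery group (CSDrec, 4: animals 28 to 31), 14 days of defeat were followed by 7 days in home cages. Per the methods, live CD31+ nucleated single cells were sorted from each brain 16 h after the last defeat, from brain without cerebellum, brainstem and meninges. Per the methods, defeated mice were taken for scores of stress susceptibility, so the groups do not stand for all defeated mice, except that mice of a single defeat were not phenotyped. Every array holds the cells of 1 animal, and a smaller number of cells of a type and less RNA per cell cannot be told apart in such samples.

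The acute-phase response is a change in secreted plasma proteins that follows infection or injury. Interleukin-6 family cytokines act through the receptor subunit Il6st and Stat3, and interleukin-1 and tumour necrosis factor act through NF-kB and C/EBP factors, mainly in liver but also in endothelium and glia. Complement is a cascade of plasma proteins that starts at C1q or lectins, passes through C4 and C3 and ends in a pore in the target membrane. Vascular cells carry surface proteins that stop it at their own membrane.

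The 19 arrays gave log2 intensities that the authors describe as normalized, and the number of arrays limits precision. Expression was read against 1567 rows of olfactory, vomeronasal and taste receptors, whose 95th percentile was log2 3.1. All 19 rows of an endothelial marker list, among them Pecam1, Cdh5 and Cldn5, lay above that level, with list means of 9.68 to 10.07 in the stressed animals, against 9.5 to 9.82 in HC. The arrays of HC animals 1 and 2 were compressed, with an SD over rows of 1.58 and 1.54 against 1.72 to 1.84 on the other 17. The median difference from HC over 30198 rows above the receptor level was 0.235 for CSD1, 0.222 for CSD7, 0.207 for CSD14 and 0.219 for CSDrec. Without HC animals 1 and 2 it was 0.0573, 0.0561, 0.0499 and 0.051 in the same order. Each difference of a member from HC is given with all 4 HC animals and then without these 2, and is read beside that shift.

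The promoters of the members with the widest changes are shown because acute-phase induction acts on short motifs near the start site. RefSeq (GRCm38.p6) gave the 250 bases before the start for 5 of the 8 genes. Lower case marks the sequence and capitals mark matches, on either strand, to 6 motifs: STAT (TTCNNNGAA), NF-kB (GGGNNNTTCC), C/EBP (TTGCNNAA), the full glucocorticoid response element (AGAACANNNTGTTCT), its 6-base core (AGAACA) and the TATA box (TATAAA). The core lies within the full element.
Serpina3n, chr12:104406458-104406707, plus strand: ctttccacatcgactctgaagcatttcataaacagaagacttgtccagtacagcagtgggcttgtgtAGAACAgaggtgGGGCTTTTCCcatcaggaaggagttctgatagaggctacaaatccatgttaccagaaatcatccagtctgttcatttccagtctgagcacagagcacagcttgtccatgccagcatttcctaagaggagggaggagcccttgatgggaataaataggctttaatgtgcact
Lcn2, chr2:32387740-32387989, minus strand: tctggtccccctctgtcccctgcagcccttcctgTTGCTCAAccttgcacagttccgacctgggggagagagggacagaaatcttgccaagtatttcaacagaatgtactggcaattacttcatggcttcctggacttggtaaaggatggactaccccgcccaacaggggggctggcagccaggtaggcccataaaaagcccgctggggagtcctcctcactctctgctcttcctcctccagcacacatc
Cd59a, chr2:104095551-104095800, plus strand: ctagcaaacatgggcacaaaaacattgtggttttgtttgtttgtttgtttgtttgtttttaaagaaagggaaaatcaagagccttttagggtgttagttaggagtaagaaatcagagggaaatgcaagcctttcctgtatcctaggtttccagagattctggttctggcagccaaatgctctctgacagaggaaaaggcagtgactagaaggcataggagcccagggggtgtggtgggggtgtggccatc
The Serpina3n window held an NF-kB match at -171 and the 6-base core at -183, counted from the start site. The Lcn2 window held a C/EBP match at -216, and those of Cd59a and Cd55 held none of the 6. That of C3, which is not printed, held a C/EBP match at -45. Of 32851 promoters of this length, 4.65% held the NF-kB motif, 16.08% the core, 9.56% the C/EBP motif, 7.02% the STAT motif, 12.37% the TATA box and 0.01% the full element. A match describes the letters and not a site in use.

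Serpina3n encodes a secreted inhibitor of serine proteases, the mouse relative of human alpha-1-antichymotrypsin. It lay above the receptor level in 2 of 4 HC animals and in every stressed animal, and its level after 1 day differed widely between animals. Serpina3n measured log2 3.37 in CSD1 animal 4, 7.11 in animal 18 and 5.37 in animal 19, against 2.89, 2.84, 3.19 and 3.25 in HC animals 1, 2, 5 and 6. In CSD7 it measured 5.64 in animal 9 and 3.59, 3.57 and 3.45 in animals 16, 17 and 25. Animal 9 alone stood apart in that group, at a level within the range of CSD1. In CSD14 the values were 4.69 in animal 15 and 3.6, 3.47 and 3.81 in animals 12, 13 and 14. The CSDrec animals lay close together, at 3.44, 3.48, 3.39 and 3.42 in animals 28 to 31. Every stressed and recovered animal lay above all 4 HC animals. The highest HC value of this gene, as of all 7, came from animal 6, so this order does not turn on animals 1 and 2.

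The difference of Serpina3n from HC was 2.24 in CSD1 (standard error 0.616, 4.73-fold) and 2.06 without HC animals 1 and 2. CSD7 differed by 1.02 (standard error 0.57, 0.843 without them), CSD14 by 0.85 (0.673 without them) and CSDrec by 0.388 (0.211 without them). The group means thus ran in the order CSD1, CSD7, CSD14, CSDrec and HC, and the 95% confidence interval of the difference between any neighbouring pair of them held 0. The CSD1 difference rested on animals 18 and 19. It was 1.33 without animal 18 and 3.2 without animal 4, which lay within 0.2 of the highest HC animal. In CSD7 the difference was 0.494 without animal 9, and in CSD14 0.583 without animal 15. Among rows above the receptor level, the spread of Serpina3n within groups stood at percentile 99.7.

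Lcn2 encodes lipocalin-2, a secreted protein that binds the iron carriers of bacteria and is made by neutrophils and, in inflammation, by endothelium and astrocytes. Among the 7 genes it alone lay below HC in CSDrec on average. Lcn2 measured 4.6, 7.13 and 6.58 in CSD1 animals 4, 18 and 19, against 4.47, 4.73, 5 and 5.21 in HC animals 1, 2, 5 and 6. The values were 5.83, 5.3, 5.28 and 5.84 in CSD7 animals 9, 16, 17 and 25, and 5.37, 5.4, 5.53 and 6.33 in CSD14 animals 12 to 15. All 8 of these animals lay above the HC range, while CSD1 animal 4 lay inside it. The CSDrec animals measured 4.29, 4.59, 4.21 and 4.47 in animals 28 to 31, in the lower part of the HC range or below it.

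The differences of Lcn2 from HC were 1.25 in CSD1 (standard error 0.404, 2.38-fold), 0.713 in CSD7 and 0.807 in CSD14 (0.374 each), and -0.462 in CSDrec (0.374). With HC animals 5 and 6 alone they were 0.999, 0.461, 0.555 and -0.714. As with Serpina3n, CSD1 animal 4 set the lower end of its group, and the CSD1 difference was 2 without it and 0.737 without animal 18.

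**Figure D1:**
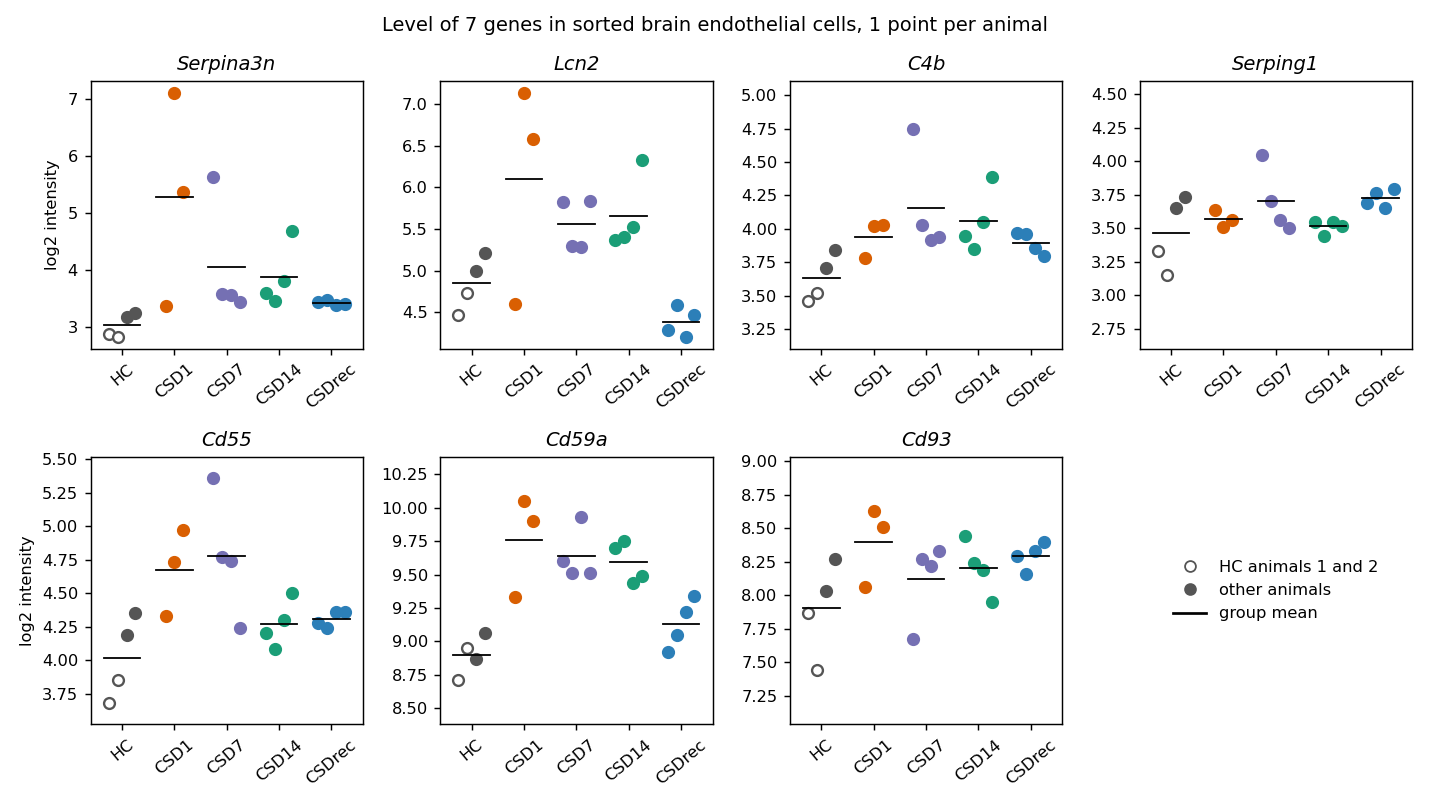
Log2 intensity (y axis, a scale of its own in each panel) of 7 genes in HC, CSD1, CSD7, CSD14 and CSDrec (x axis), 1 point per animal; open points are HC animals 1 and 2, lines are group means. Serpina3n spans 3.37 to 7.11 within CSD1 and 3.39 to 3.48 within CSDrec, and Lcn2 in CSDrec lies at 4.21 to 4.59, below all CSD7 and CSD14 animals.

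C4b encodes complement component C4, which is cut at the start of the cascade and then helps to form the enzyme that cuts C3. It measured 3.78, 4.02 and 4.03 in CSD1 animals 4, 18 and 19, against 3.46, 3.52, 3.71 and 3.84 in HC animals 1, 2, 5 and 6. In CSD7 it measured 4.75 in animal 9 and 4.03, 3.92 and 3.94 in animals 16, 17 and 25. In CSD14 animals 12 to 15 the values were 3.95, 3.85, 4.05 and 4.39. All CSD7 and CSD14 animals lay above HC, with animal 9 of CSD7 and animal 15 of CSD14 as the highest, the same animals that led Serpina3n in those groups. The CSDrec animals lay at 3.8 to 3.97. CSD1 differed from HC by 0.312 (standard error 0.169), CSD7 by 0.526 (0.156), CSD14 by 0.425 and CSDrec by 0.265, and by 0.166, 0.38, 0.279 and 0.119 against HC animals 5 and 6 alone. The CSD7 difference was 0.33 without animal 9. C4a, a near-identical neighbour of C4b, has a row of its own that followed it closely, and how far the probes tell the copies apart was not tested.

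Serping1 encodes the C1 inhibitor, which blocks the proteases that start the classical and lectin pathways. It moved least of the 7 genes, with a mean of 3.46 for HC, 3.57 for CSD1, 3.7 for CSD7, 3.51 for CSD14 and 3.72 for CSDrec. Individual values ran from 3.51 to 3.64 in CSD1, 3.5 to 4.05 in CSD7, 3.44 to 3.55 in CSD14 and 3.65 to 3.79 in CSDrec, against 3.15 to 3.73 in HC. All groups overlapped HC. CSD1 differed from HC by 0.104, CSD7 by 0.238, CSD14 by 0.0498 and CSDrec by 0.26. Without HC animals 1 and 2 these became -0.121, 0.0127, -0.176 and 0.0342, so the sign in CSD1 and CSD14 turned with these 2 arrays.

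Cd55 and Cd59a encode lipid-anchored surface proteins that protect cells from complement. Cd55, or decay-accelerating factor, takes apart the enzymes that cut C3 and C5. It measured 4.33, 4.73 and 4.97 in CSD1 animals 4, 18 and 19, against 3.68, 3.85, 4.19 and 4.35 in HC animals 1, 2, 5 and 6. In CSD7 it measured 5.36, 4.77, 4.74 and 4.24 in animals 9, 16, 17 and 25. CSD14 lay at 4.08 to 4.5 and CSDrec at 4.24 to 4.36, both inside or just above the HC range. The differences from HC were 0.66 in CSD1 (standard error 0.207), 0.761 in CSD7 (0.192), 0.252 in CSD14 and 0.29 in CSDrec. They were 0.407, 0.507, -0.0014 and 0.0371 against HC animals 5 and 6 alone. The CSD7 difference was 0.567 without animal 9.

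Cd59a blocks the last step, the assembly of the pore. Of the 7 genes it had the largest difference relative to its standard error in CSD1, CSD7 and CSD14. Cd59a measured 9.33, 10.05 and 9.9 in CSD1 animals 4, 18 and 19, against 8.71, 8.95, 8.87 and 9.06 in HC animals 1, 2, 5 and 6. The values were 9.6, 9.51, 9.93 and 9.51 in CSD7 animals 9, 16, 17 and 25, and 9.7, 9.75, 9.44 and 9.49 in CSD14 animals 12 to 15. Every animal of these 3 groups lay above every HC animal. In CSDrec, animals 28 to 31 measured 8.92, 9.05, 9.22 and 9.34 and overlapped HC. The differences from HC were 0.863 in CSD1 (standard error 0.155, 1.82-fold), 0.74 in CSD7 (0.144, 1.67-fold), 0.694 in CSD14 (0.144, 1.62-fold) and 0.233 in CSDrec (0.144). Against HC animals 5 and 6 alone they were 0.793, 0.67, 0.624 and 0.163. With all arrays set to 1 distribution they were 0.5985, 0.5638, 0.5005 and 0.1156. Cd59b and Cd55b, close copies of Cd59a and Cd55, have rows of their own, and cross-hybridization between copies was not tested.

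Cd93 encodes a transmembrane lectin of endothelium that was first described as a receptor for C1q. It lay well above the receptor level in all animals, at 7.44 to 8.27 in HC, 8.06 to 8.63 in CSD1, 7.67 to 8.33 in CSD7, 7.95 to 8.44 in CSD14 and 8.16 to 8.4 in CSDrec, and every group overlapped HC. The lowest stressed value was that of CSD7 animal 9, which was the highest or next to highest for Serpina3n, Serping1, C4b and Cd55. CSD1 differed from HC by 0.495 (standard error 0.187), CSD7 by 0.219, CSD14 by 0.303 and CSDrec by 0.392 (0.173 each). With HC animals 1 and 2 left out these became 0.245, -0.0307, 0.053 and 0.142, and with all arrays set to 1 distribution the CSD7 difference was -0.0901.

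In the limma fit over all rows, with Benjamini-Hochberg adjustment and a threshold of 0.05, 2 of 7 members passed as higher in CSD1 (Serpina3n and Cd59a), where 5.84% of all rows did. In CSD7 3 passed (C4b, Cd55 and Cd59a; 9.04% of all rows), in CSD14 1 (Cd59a; 6.87%) and in CSDrec 0 (0.0167%). As lower, 0 members passed in any group, where 0.96%, 1.96%, 1.03% and 0% of all rows did. Nothing is read from these counts, since the members were chosen with these differences known. Without HC animals 1 and 2, 0 members passed in any group, and of all rows 0%, 0.00606%, 0.0091% and 0% passed in CSD1, CSD7, CSD14 and CSDrec. The members that lay wholly above HC were Serpina3n and Cd59a in CSD1 (9.78% of all rows did), Serpina3n, C4b, Cd59a and Lcn2 in CSD7 (7.47%) and in CSD14 (10.1%), and Serpina3n in CSDrec (8.38%). Wholly below HC lay 0 members, where 6.6%, 2.91%, 2.56% and 1.48% of all rows did. The median difference of the 7 members from HC was 0.66 after 1 day, 0.713 after 7, 0.425 after 14 and 0.265 after recovery, and 0.407, 0.461, 0.279 and 0.119 without HC animals 1 and 2. Over all rows tested the medians were 0.0224, 0.0318, 0.0387 and 0.0597. The means of all 7 members lay above the receptor level. Over rows above that level the medians were 0.235, 0.222, 0.207 and 0.219, and 0.0573, 0.0561, 0.0499 and 0.051 without HC animals 1 and 2.

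**Figure D2:**
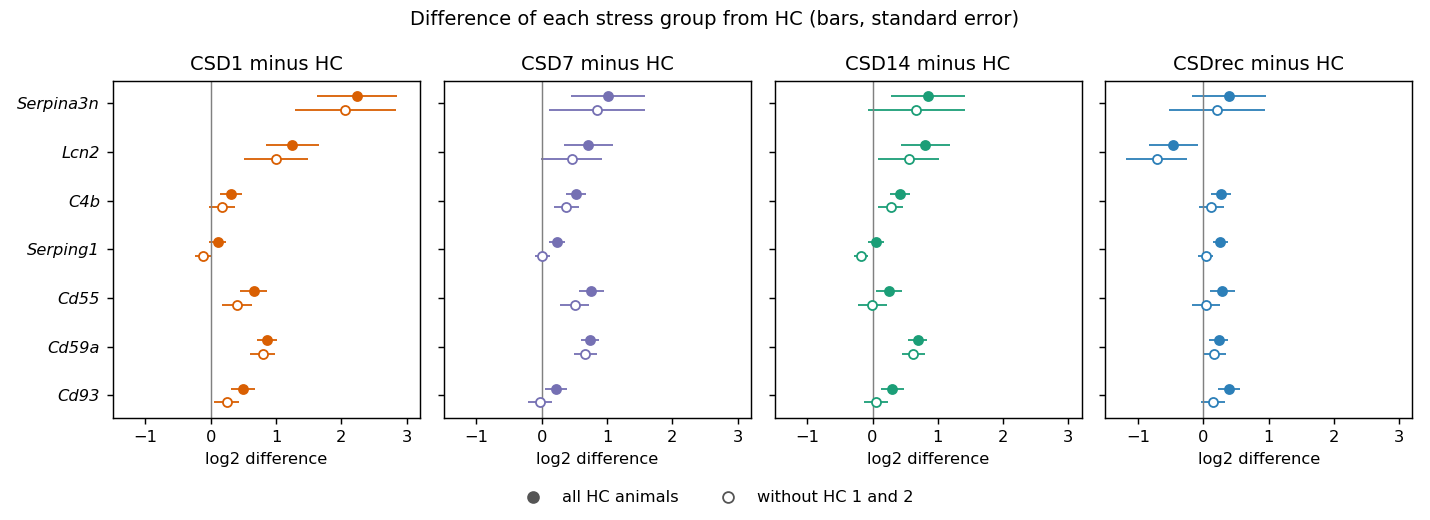
Log2 difference from HC (x axis) of 7 genes (rows) in CSD1, CSD7, CSD14 and CSDrec (panels), with all HC animals (filled) and without HC animals 1 and 2 (open); bars are standard errors. Cd59a stays near 0.6 to 0.9 in the 3 defeat groups in either setting, whereas Cd55 in CSD14 moves to -0.0014 and Lcn2 in CSDrec lies below 0 in both.

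The F-test over the 5 groups passed for 1 of 7 members, Cd59a (adjusted p = 0.045, limma), and for 0.555% of all rows. Without HC animals 1 and 2 the F-test passed for 0 rows, and with all arrays set to 1 distribution for 1 row. It uses the same HC arrays as the differences above and is likewise a description for these genes. Of the others, adjusted p from this limma test was 0.079 for Lcn2, 0.1 for Cd55, 0.17 for Serpina3n, 0.21 for C4b, 0.34 for Cd93 and 0.41 for Serping1.

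Comparisons between stress groups ask whether the response changed with further defeat or with rest. All of them use arrays whose differences from HC were known when the genes were chosen, so their p-values are not free of that choice. In the limma fit over all rows 0 members passed in any of the 4 comparisons (7 against 1 day, 14 against 1 day, 14 against 7 days and recovery against 14 days), and 0% of all rows passed in each. At an unadjusted p under 0.05, 4 of the 28 member comparisons passed, beside 1.38%, 2.88%, 1.53% and 3.67% of all rows in the 4 comparisons. With arrays weighted by limma, Serpina3n (-1.72), Cd55 (-0.689) and Lcn2 (-0.993) passed in CSD14 against CSD1, as did 6629 of all rows.

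Of the 28 differences, that of Lcn2 had the lowest p, at -1.27 in CSDrec against CSD14 (95% confidence interval -2.06 to -0.483, standard error 0.374, limma unadjusted p = 0.0033, adjusted p = 1). It measured 4.21 to 4.59 in CSDrec, against 5.37 to 6.33 in CSD14, with no overlap, and came 2nd from the bottom of 65956 rows by size. HC animals play no part in the size of this difference, which ran from -1.36 to -1.05 when each animal was left out in turn. They do enter its standard error, which was 0.384 without HC animals 1 and 2. Cd59a differed by -0.461 in the same comparison (95% confidence interval -0.763 to -0.159, limma unadjusted p = 0.005, adjusted p = 1), with 8.92 to 9.34 in CSDrec against 9.44 to 9.75 in CSD14 and again no overlap. Wholly below CSD14 lay these 2 members (2.33% of all rows did), and wholly above it lay Serping1 (2.5%), whose difference was 0.21 (95% confidence interval -0.0428 to 0.463). Pericyte markers moved with Serping1 here: in CSDrec all 10 lay above their CSD14 mean (median difference 0.567), with list means of 5.35 to 5.85 in CSDrec, against 4.77 to 5.22 in CSD14, and no overlap. All 11 border macrophage markers were higher too (median difference 0.45), with list means of 3.51 to 4.53 in CSDrec, against 3.45 to 3.58 in CSD14. Of both lists 0 markers passed the test, and their part in the Serping1 level was not tested. For the remaining members the recovery difference was -0.462 for Serpina3n (95% confidence interval -1.66 to 0.738), -0.16 for C4b, 0.0385 for Cd55 and 0.0892 for Cd93. Leaving out CSD14 animal 15 moved them to -0.195 for Serpina3n, -0.0505 for C4b, 0.114 for Cd55 and 0.0042 for Cd93, and without CSD14 animal 13 that of Cd55 was -0.0249.

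Serpina3n in CSD14 against CSD1 differed by -1.39 (95% confidence interval -2.69 to -0.095, limma unadjusted p = 0.037, adjusted p = 1), and by -0.478 without CSD1 animal 18. In CSD7 against CSD1 it differed by -1.22 (-2.52 to 0.075) and by -0.308 without CSD1 animal 18. In CSD14 against CSD7 it differed by -0.17 (-1.37 to 1.03), a sign that turned to 0.356 without CSD7 animal 9. Cd55 in CSD14 against CSD7 differed by -0.509 (95% confidence interval -0.912 to -0.106, limma unadjusted p = 0.016, adjusted p = 1), with 4.08 to 4.5 in CSD14 against 4.24 to 5.36 in CSD7, and by -0.315 without CSD7 animal 9. Lcn2 and Cd59a showed no such step between 14 and 7 days (0.0945 with an interval of -0.692 to 0.881, and -0.0461 with -0.348 to 0.256), which leaves room for changes of either sign.

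**Figure D3:**
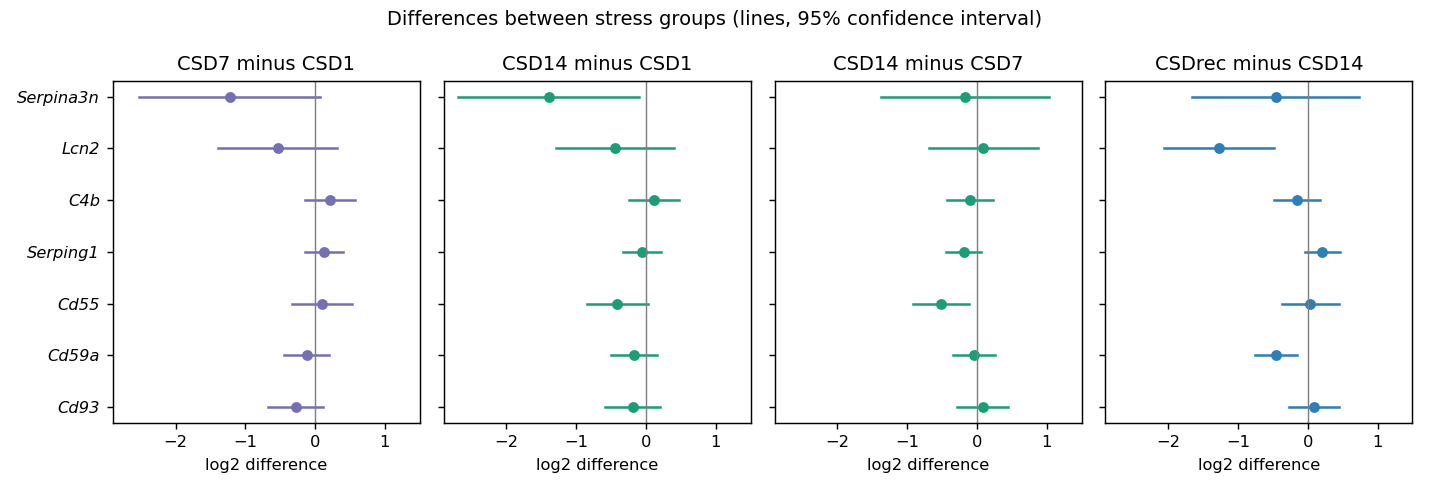
Log2 difference between stress groups (x axis) of 7 genes (rows) in 4 comparisons (panels); points are limma estimates and lines 95% confidence intervals. The interval of Lcn2 in CSDrec minus CSD14 runs from -2.06 to -0.483 and that of Cd59a from -0.763 to -0.159, while those of Serpina3n are the widest in every panel.

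The members did not all rank the animals alike. Serpina3n was led by CSD1 animal 18, CSD7 animal 9, CSD1 animal 19, CSD14 animal 15 and CSD14 animal 14, and 4 of these 5 animals were also among the 5 highest for Lcn2 and 4 among the 5 highest for C4b. Only 1 of them, CSD7 animal 9, was among the 5 highest for Serping1. CSD1 animals 18 and 19 were among the 5 highest for 5 and 6 of the 7 genes, and CSD7 animal 9 for 5.

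Over 13535 rows of named genes above the receptor level, those most like each member were sought by Pearson's r across the 19 animals after each group's mean was removed. All rows share the same 19 arrays, so r is a description. For Serpina3n these were the tetraspanin Cd9 (r = 0.889), the secreted glycoprotein Lrg1 (0.879) and the sodium pump subunit Atp1b1 (0.863). For Lcn2 they were the lipocalin Apod (0.926), the cholesterol hydroxylase Ch25h (0.922) and Tmem176b (0.895). Lrg1 split the CSD1 animals as Serpina3n did, with 4.07, 6.9 and 5.46 in animals 4, 18 and 19, against 3.42 to 3.72 in HC. Without removal of group means, Lrg1 (0.914) led for Serpina3n and Apod (0.907) for Lcn2. For C4b the row most like it was C4a (0.973) and for Cd59a it was Cd59b (0.942), their close copies. Serping1 was most like Adgrb2 (0.968), and like the smooth muscle myosin Myh11 (0.942) when group means were kept. Cd55 was most like Fam149a (0.968) and Cd93 like Tspan5 (0.936).

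Markers of other brain cells moved with several members. The mean log2 level of 12 astrocyte markers was 3.74 to 4.06 in HC, 4.12 to 5.17 in CSD1, 4.01 to 6.22 in CSD7, 4.02 to 4.48 in CSD14 and 4.29 to 4.4 in CSDrec, with 12 of 12 above the receptor level in every stressed animal and 11 or 12 in HC. CSD7 animal 9 was the highest at 6.22 and CSD1 animal 19 the next at 5.17, which were also the highest animals for Cd55. Gfap, the defining filament of astrocytes, measured 5.25 in CSD7 animal 9 and 3.46 to 4.39 in the others. Of the 12 markers, 5 passed as higher in CSD7, where 9.04% of all rows did, and 0 in the other groups. Without HC animals 1 and 2, 0 passed in any group, and the median differences of the list from HC were 0.451, 0.663, 0.211 and 0.244 in group order, against 0.647, 0.91, 0.319 and 0.468 with all 4.

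The 18 microglia markers averaged 3.95 to 4.12 in HC, 4.16 to 5.35 in CSD1, 4.36 to 5.65 in CSD7, 4.43 to 4.73 in CSD14 and 4.53 to 5.04 in CSDrec, with 17 or 18 of 18 above the receptor level in the stressed animals and 15 to 17 in HC. CSD7 animal 9 again led, as it did for C4b, while CSD1 animal 4 (4.16) stood next to HC. Of the 18 markers 3, 13, 2 and 0 passed as higher in CSD1, CSD7, CSD14 and CSDrec, beside 5.84%, 9.04%, 6.87% and 0.0167% of all rows. With HC animals 1 and 2 left out 0 passed in any group, while the median differences of the list were 0.631, 0.83, 0.406 and 0.632, against 0.718, 0.855, 0.41 and 0.7 with all 4. The 8 choroid plexus markers averaged 3.75 to 3.89 in HC, 4.05 to 5.46 in CSD1, 4 to 5.03 in CSD7, 3.92 to 5.19 in CSD14 and 4.23 to 5.18 in CSDrec. CSD1 animal 18 and CSD14 animal 15 stood at the top, the leading animals for Serpina3n and Lcn2 in their groups. Pearson's r of the list mean was 0.71 with Serpina3n and 0.47 with Lcn2 (0.71 and 0.62 with group means removed). For Serpina3n it was 0.59 without CSD1 animal 18 and CSD7 animal 9, the 2 farthest from its median. For Lcn2 it was 0.22 without CSD1 animals 18 and 19, the 2 farthest from its median. The high choroid plexus values of CSDrec stood beside the low Lcn2 there and Serpina3n of 3.39 to 3.48. Of the 8 choroid plexus markers 1, 2, 0 and 0 passed as higher, beside the same shares of all rows, and 0 without HC animals 1 and 2.

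Neutrophils are a known source of Lcn2. Their 13 markers averaged 3.23 to 3.68 in CSD1, 3.15 to 3.3 in CSD7, 3.13 to 3.27 in CSD14 and 3.1 to 3.38 in CSDrec, against 3.1 to 3.45 in HC, with 6 to 10 above the receptor level in stressed animals and 5 to 8 in HC. S100a8 measured 5.92 in CSD1 animal 18, the animal with the highest Lcn2 and Serpina3n, and 3.06 and 3.18 in CSD1 animals 4 and 19, against 4.8 and 4.81 in HC animals 1 and 2 and 2.77 and 2.61 in HC animals 5 and 6. In CSD1 animal 19, Lcn2 was 6.58 with S100a8 at 3.18. The 7 smooth muscle markers averaged 5.62 in CSD7 animal 9, the animal with the highest Serping1, and 3.83 and 3.85 in HC animals 2 and 1, the animals with the lowest. The other 16 animals lay at 4.23 to 4.79. Smooth muscle markers passed in 0 of 7 cases in each group. The 10 pericyte markers averaged 4.3 in both HC animals 1 and 2 and 6.54 and 6.34 in HC animals 5 and 6, the pair of HC animals with the higher Serping1. Their 5.02 to 6.24 in CSD7 was again highest in animal 9. The 9 markers of hepatocytes, the main source of acute-phase proteins, averaged 3.61 to 3.81 in CSD1, 3.63 to 3.78 in CSD7, 3.6 to 3.78 in CSD14 and 3.54 to 3.81 in CSDrec, against 3.27 to 3.65 in HC. Of them 0, 1, 0 and 0 passed as higher, beside 5.84%, 9.04%, 6.87% and 0.0167% of all rows (0 without HC animals 1 and 2). CSD7 animal 9 also ranked 1st of 19 for the neuron (4.85), oligodendrocyte (3.95) and fibroblast (3.54) marker means. It ranked 17th for endothelial markers, at 9.68. C4b had a Pearson's r of 0.87 with the neuron list, 0.82 with the astrocyte list and 0.76 with the microglia list. Without CSD7 animal 9 and HC animal 1, the 2 farthest from the median of C4b, these were 0.68, 0.54 and 0.62. The part that other cells play in the levels of the members was not tested.

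**Figure D4:**
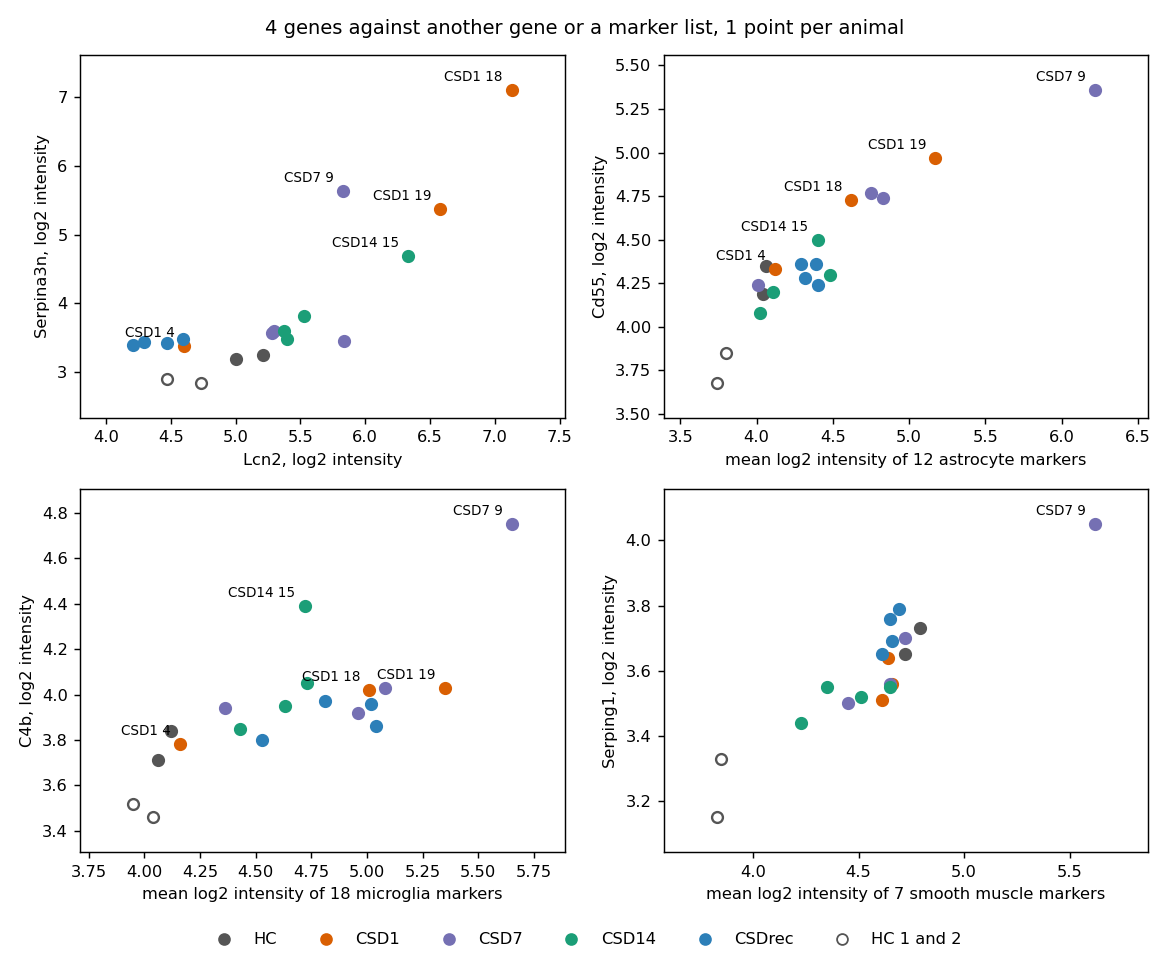
Log2 intensity per animal of Serpina3n against Lcn2, Cd55 against the mean of 12 astrocyte markers, C4b against the mean of 18 microglia markers and Serping1 against the mean of 7 smooth muscle markers (axes in log2 intensity; colours are groups, open points HC animals 1 and 2). CSD7 animal 9 has the highest marker mean in all 3 marker panels (6.22, 5.65 and 5.62), and CSD1 animal 18 is the highest for Serpina3n (7.11) and Lcn2 (7.13). CSD7 animal 9 ranks 1st for neuron, oligodendrocyte and fibroblast markers too, and 17th of 19 for endothelial markers.

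The receptors and signal genes that drive acute-phase induction were read from a list of 18 genes, all above the receptor level. All 18 differences from HC were positive in each stress group, as were those of all 19 endothelial markers. Of all rows above the receptor level, 86.8%, 84.6%, 85% and 88.6% were positive in CSD1, CSD7, CSD14 and CSDrec. Medians of the 18 genes were 0.435 for CSD1, 0.446 for CSD7, 0.439 for CSD14 and 0.382 for CSDrec. Over all rows above that level they were 0.235, 0.222, 0.207 and 0.219. As higher passed 5, 8, 7 and 0 genes, beside 5.84%, 9.04%, 6.87% and 0.0167% of all rows. Endothelial markers passed as higher in 5, 4, 9 and 0 of 19 cases. A fit of the 30198 rows above the receptor level alone passed 5851, 7667, 6190 and 2519 rows in either direction. A larger share thus passed among such rows than among all rows. The list of 18 genes and those that follow were chosen with earlier results of these data known, so their counts are no independent evidence.

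The tumour necrosis factor receptor Tnfrsf1a differed from HC by 0.955 after 1 day, 0.822 after 7 and 0.807 after 14 (limma adjusted p = 0.0294, 0.0214 and 0.0244), and by 0.489, 0.356 and 0.341 without HC animals 1 and 2. The interleukin-6 receptor Il6ra differed by 0.823, 0.765 and 0.694, and by 0.369, 0.311 and 0.24 without them. The NF-kB cofactor Nfkbiz differed by 0.668, 0.772 and 0.584 (limma adjusted p = 0.0308, 0.0152 and 0.0263), and by 0.416, 0.52 and 0.331 without them. All 3 genes thus kept a positive difference in the 3 defeat groups at a smaller size. The interleukin-1 receptor Il1r1 differed by 1.39 in CSD7 and 1.38 in CSD14 (limma adjusted p = 0.0354 and 0.042), and by 0.67 and 0.658 without HC animals 1 and 2. Cebpd differed by 0.876 in CSD1 and 1.03 in CSD7 (limma adjusted p = 0.0445 and 0.0186), and by 0.719 and 0.877 without them. Stat3, named for its role, differed by 0.551, 0.461 and 0.53 in the 3 defeat groups, and by 0.362, 0.272 and 0.342 without them. The medians of the list were 0.177, 0.214, 0.183 and 0.108 with HC animals 1 and 2 left out, and 0 of the 18 genes passed then.

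**Figure D5:**
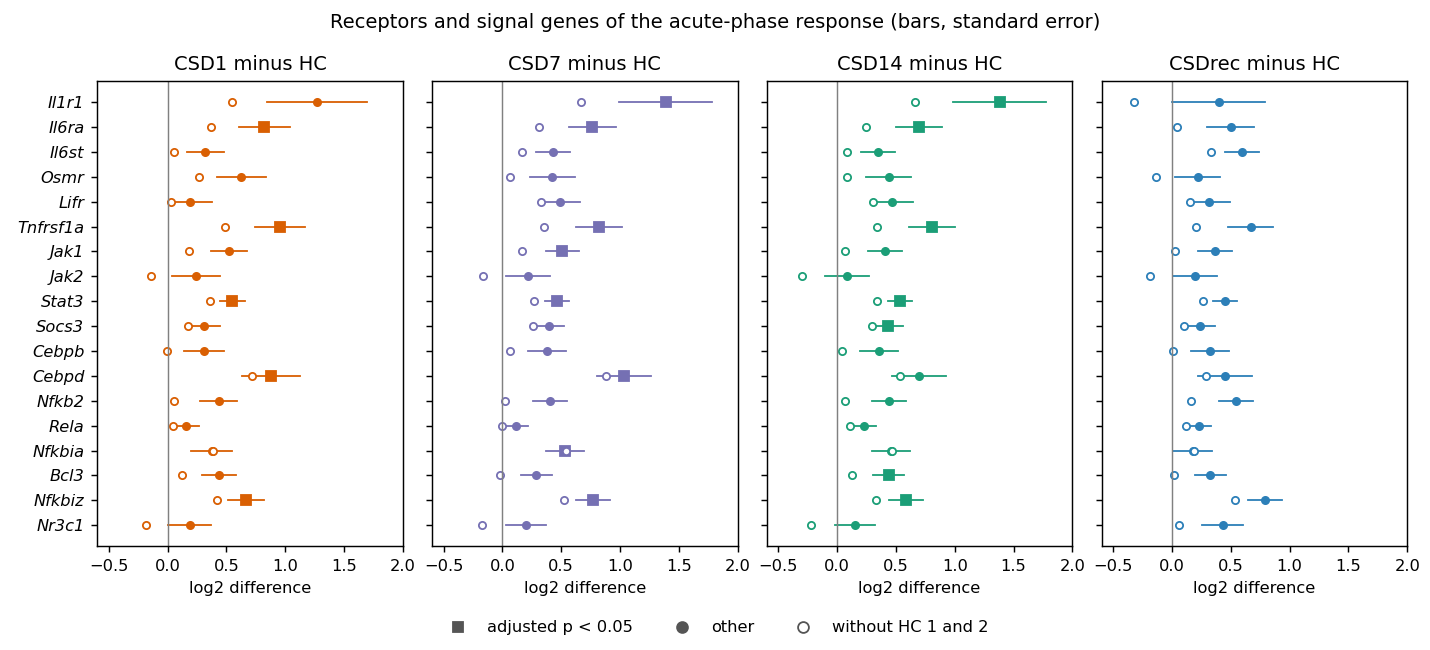
Log2 difference from HC (x axis) of 18 receptors and signal genes of the acute-phase response (rows) in 4 stress groups (panels); squares passed an adjusted p of 0.05, filled circles did not, bars are standard errors, and open circles leave out HC animals 1 and 2. With all HC animals every point lies to the right of 0 and 5, 8, 7 and 0 genes are squares. Of all rows above the receptor level, 84.6% to 88.6% have a positive difference as well.

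Most other acute-phase proteins of the liver type did not lie above the receptor level. Of 24 listed genes beside Serpina3n and Lcn2, 9 lay above it, and 1, 1, 0 and 0 passed as higher in the 4 stress groups, beside 5.84%, 9.04%, 6.87% and 0.0167% of all rows. These were Lrg1 in CSD1 (1.92, limma adjusted p = 0.0296, and 1.83 without HC animals 1 and 2) and Lbp, which carries bacterial lipopolysaccharide, in CSD7 (1.81, limma adjusted p = 0.0356, and 1.58 without them). Serum amyloid Saa3, the fibrinogen chains Fga, Fgb and Fgg, and Apcs had means of log2 2.48 to 2.71 over the 19 animals. Of 5 other Serpina3 cluster genes with a row, neighbours of Serpina3n on chromosome 12, 2 lay above the receptor level and 0 passed in any group. Their differences in CSD1 ran from -0.188 to 0.272, and from -0.0582 to 0.266 without HC animals 1 and 2.

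Of 11 serpins outside the cluster 4, 5, 1 and 0 passed as higher, beside 5.84%, 9.04%, 6.87% and 0.0167% of all rows. Without HC animals 1 and 2, 0 of these serpins passed in any group. Among them the collagen chaperone Serpinh1 differed from HC by 0.605, 0.485 and 0.571 in the 3 defeat groups (limma adjusted p = 0.0355, 0.0394 and 0.0278), and by 0.363, 0.243 and 0.329 without these 2 animals. Serpinb1a differed by 1.05 in CSD1 and 1.12 in CSD7 (limma adjusted p = 0.0428 and 0.0229), and by 0.71 and 0.782 without them.

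Among 14 genes that start complement, beside C4b, 3, 4, 2 and 0 passed as higher in the 4 stress groups, again beside 5.84%, 9.04%, 6.87% and 0.0167% of all rows. They were the C1q chains, which microglia make, and C4a. C1qb differed from HC by 1.98, 2.3 and 1.77 in the 3 defeat groups (limma adjusted p = 0.0448, 0.0194 and 0.0453), and by 1.9, 2.22 and 1.69 without HC animals 1 and 2. C1qa differed by 1.12, 1.33 and 0.814 (limma adjusted p = 0.027, 0.0152 and 0.0278), and by 0.967, 1.18 and 0.663 without them. The C1q differences thus changed little in size when the compressed arrays were left out. C1qc differed by 0.906 in CSD1 and 1.06 in CSD7 (limma adjusted p = 0.0466 and 0.0198; 0.821 and 0.974 without them), and C4a by 0.315 in CSD7 (limma adjusted p = 0.0357; 0.234 without them). In CSDrec, C1qa, C1qb and C1qc differed by 1.24, 2.16 and 1.12 and did not pass (limma adjusted p = 0.0508, 0.0606 and 0.0593).

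Of 10 further regulators 1, 3, 1 and 0 passed as higher, beside 5.84%, 9.04%, 6.87% and 0.0167% of all rows. Cd59b differed from HC by 0.539 in CSD1 and 0.468 in CSD7 (limma adjusted p = 0.0332 and 0.0283), and by 0.514 and 0.443 without HC animals 1 and 2. The chaperone-like Clu differed by 1.39 in CSD7 (limma adjusted p = 0.018) and by 1.33 without them. Cd55b differed by 0.369 in CSD7 and Susd4 by 0.307 in CSD14 (limma adjusted p = 0.0376 and 0.0305), and by 0.342 and 0.207 without them. Of 9 other receptors 0, 2, 0 and 0 passed as higher, beside the same shares of all rows. These were the integrin chains Itgam and Itgb2 in CSD7, which are also carried by microglia. They differed by 0.768 and 0.464 (limma adjusted p = 0.0356 and 0.0215), and by 0.735 and 0.312 without HC animals 1 and 2. The 7 genes of the terminal pathway passed in 0 cases, with 1 of 7 above the receptor level. Cfb, which amplifies C3 cleavage, differed from HC by 0.277, 0.241, 0.282 and 0.237 in the 4 stress groups, and by 0.121, 0.0861, 0.127 and 0.0819 without HC animals 1 and 2. Cfp, which stabilizes the enzyme that does so, differed by 0.322, 0.196, 0.283 and 0.383, and by 0.0876, -0.0385, 0.0486 and 0.149 without them, so its sign in CSD7 turned. Neither passed in any group, and without these 2 animals 0 genes of the complement and acute-phase lists passed.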

How the data were processed

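RNA of sorted bECs from 19 mice was measured on arrays, 1 animal per array. The authors deposited log2 values described as background-corrected by RMA, quantile-normalized and summarized by median polish. For this the methods name Partek Genomics Suite and the labels Affymetrix Expression Console. The deposited arrays did not share 1 distribution, with an SD over rows from 1.54 in HC animal 2 to 1.84 in CSD1 animal 18. The reason was not tested. The labels name another array type than the Clariom D of the methods. The deposited table held 72688 rows, of which 6732 control rows were left out, and its values were used as they stood. The number of arrays limits the precision.

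Symbols came from the platform annotation, in which 30638 rows carried 1 symbol, 2176 several and 33142 none. Every member with a row had 1. limma 3.58.1 (R 4.3.3) was fitted over 5 groups and 19 arrays with equal weights (14 residual and 3.6 prior degrees of freedom), with Benjamini-Hochberg adjustment over 65956 rows and a threshold of 0.05. The script was tested on simulated data. Spread within groups is the residual SD of this fit. The members and gene lists were chosen with earlier results of these data known. Named genes are the members and, of each list and comparison, up to 4 genes past the threshold with the largest differences, or otherwise the 2 largest; Gfap, S100a8, Lrg1 by animal, Stat3, Il6ra in CSD7, the Saa3 and fibrinogen group and the serpins in part were picked after their values were seen.

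Alternatives left out HC animals 1 and 2 or each animal, set all arrays to 1 distribution, weighted arrays, fitted 2 groups alone, or kept rows above the receptor level. HC animal 5 carries a stressed entry in its diet field and was kept as HC by its title. The daily encounter lasted 10 min per the labels and 5 min per the methods. Per the methods, several groups were harvested on each collection day, and the day of each animal was not used here. The animal numbers in the titles largely follow group, with 1, 2, 5 and 6 in HC, 12 to 15 in CSD14 and 28 to 31 in CSDrec. CSD1 animal 4 is numbered among HC, apart from CSD1 animals 18 and 19. Where number and group run together, an effect of sample order and of group cannot be told apart. Python 3.11.15 drew figures and searched promoters.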

Additional observations from a re-analysis of the deposited data

Results flagged for a closer look

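In a group of 4, an animal was marked when its gap to the next, divided by the range of the group, exceeded Dixon's 95% critical value, which chance passes in about 1 of 20 groups. Of 28 groups of 4 animals, 3 were marked. Serpina3n in CSD7 had a ratio of 0.938, with 5.64 in animal 9 and 3.45 to 3.59 in the others. C4b in CSD7 had a ratio of 0.87, with 4.75 in the same animal and 3.92 to 4.03 in the others. Lcn2 in CSD14 had a ratio of 0.834, with 6.33 in animal 15 and 5.37 to 5.53 in the others. CSD1, with 3 animals, was not examined in this way.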

How the results depend on the processing

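Rows past the adjusted p numbered 4485, 7254, 5209 and 11 for CSD1, CSD7, CSD14 and CSDrec against HC, 0 in each comparison between stress groups (910, 1900, 1006 and 2420 at an unadjusted p under 0.05) and 366 in the F-test. Without HC animals 1 and 2 these were 0, 4, 6 and 0 against HC and 0 in the F-test. With 1 distribution CSD1 gave 0, CSD7 151, CSD14 809 and the F-test 1. With array weights CSD1 gave 10489, CSD7 579, CSD14 1477, CSD7 against CSD1 80, CSD14 against CSD1 6629, CSDrec against CSD14 2 and the F-test 10781. Fits of 2 groups gave 0 for CSD1, CSD7 and CSDrec, 14 for CSD14 and 1 for CSDrec against CSD14. With rows above the receptor level only, CSDrec gave 2519 and the F-test 1771. When each animal was left out in turn, the counts against HC ran from 0 (without HC animal 1) to 16626 in CSD1, 0 (without HC animal 2) to 18478 in CSD7, 10 (without HC animal 1) to 15905 in CSD14 and 0 (without CSDrec animal 29) to 13790 in CSDrec, each highest without HC animal 6. Those of CSD7 against CSD1, CSD14 against CSD1 and CSDrec against CSD14 ran from 0 to 1, and the F-test from 0 to 9091. The cause was not tested. With array weights, Serpina3n, Cd55 and Lcn2 in CSD14 against CSD1 passed (-1.72, -0.689 and -0.993). Of 56 member differences, 4 moved by more than the spread between animals without HC animals 1 and 2 (those of Serping1), 4 with 1 distribution, 3 beside those 3 with array weights, and 0 under the other 2 settings. The 28 between stress groups do not involve HC, so leaving out HC animals cannot change their size. It can change their standard errors and adjusted p, since the spread is estimated over all 5 groups. Without HC animals 1 and 2, Lcn2 in CSDrec against CSD14 had a standard error of 0.384 (limma adjusted p = 0.63), against 0.374 with them. The 28 differences were judged by the threshold unless their sign turned. Fits of 2 groups and of fewer rows give the same differences by construction, so their 0 is no evidence of stability. Each member had 1 row, so the mean over rows was the same. No paired analysis was possible because the replicate numbers are animal numbers that no groups share. Rows near the receptor level, as Serpina3n in HC, can understate a difference.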
